A study of Mus musculus with 6 samples.

Results

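The nuclear genes of oxidative phosphorylation were compared between retinal ganglion cells (RGCs) of embryonic day 18 (E18) and postnatal day 5 (P5) mice. The genes were taken by symbol: every row of the count table whose name begins with Ndufa, Ndufb, Ndufc, Ndufs, Ndufv, Uqcr, Cox4 to Cox8 or Atp5, together with Sdha, Sdhb, Sdhc, Sdhd and Cyc1. The rule found 93 of 24060 genes, and 90 of them passed the expression filter and were tested. By their known roles, 43 belong to complex I, of which 7 are assembly factors, 4 to complex II, 9 to complex III, 20 to complex IV and 15 to complex V, and Atp5s and Atp5sl carry the symbol but encode no ATP synthase subunit.

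Both ages were C57BL/6 mice with no treatment named in the labels, and each age had 3 samples, numbered 1, 3 and 4 at E18 and 6, 8 and 9 at P5. Retinas were dissociated with papain, macrophages were removed on an antibody, and RGCs, the neurons that send the optic nerve to the brain, were caught by immunopanning on an antibody to CD90, the product of Thy1. The labels do not say that the samples of an age came from separate litters or preparations, so p-values measure the spread between these samples, which may be technical. The table names the column taken for E18 replicate 1 with the further numbers 2 and 5, and no other column is numbered 1. In bulk RNA, fewer cells of a type and less RNA per cell cannot be told apart.

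Oxidative phosphorylation passes electrons from NADH through complex I, or from succinate through complex II, to complex III and then by cytochrome c to complex IV, which reduces oxygen. Complexes I, III and IV pump protons out of the matrix, and complex V, the ATP synthase, lets them back in to make ATP. Most subunits are encoded in the nucleus and imported, and they have to be joined with a small set encoded in mitochondrial DNA. In RGCs mitochondria are dense in the unmyelinated part of the axon inside the eye, and inherited defects of complex I cause loss of these neurons. The 13 protein genes of mitochondrial DNA were not analysed here.

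The samples held between 81213639 and 114512853 reads on genes. RGC markers summed to 5843 to 6862 CPM (reads on a gene scaled to the library total, with TMM factors) at E18 and 6872 to 8172 at P5, and all 12 passed the expression filter. Nefl alone held 1636 to 2134 CPM of that sum at E18 and 2361 to 3462 at P5. By the test below 4 of the 12 were lower at E18 and 3 higher, where 22.5% and 20.8% of all genes were. Thy1, whose product was the target of the panning, had 212 to 312 CPM at E18 and 469 to 690 at P5. Isl1 went the other way, with 522 to 617 CPM against 207 to 309. Markers of dividing cells summed to 329 and 133 CPM in E18 replicates 1 and 3 and 81.6 in replicate 4, against 63.6 to 80.5 at P5. Amacrine markers summed to 97.1 and 200 CPM in E18 replicates 1 and 3 and 14.7 in replicate 4, against 19.2 to 28.8 at P5. Progenitor markers summed to 645 to 923 CPM at E18 and 513 to 648 at P5, Müller glia and astrocyte markers to 404 to 448 and 271 to 325, oligodendrocyte markers to 74.7 to 77.5 and 39.8 to 63.3, bipolar markers to 50 to 74.6 and 70.0 to 97.7, and photoreceptor markers to 3.14 to 10.8 and 3.49 to 4.53. Pax6 alone held 622 to 751 CPM of the progenitor sum at E18 and 498 to 629 at P5. Sox2 stood at 45.7, 69.3 and 0.950 CPM in E18 replicates 1, 3 and 4 and 0.790 to 1.48 at P5. Ccnd1 stood at 146, 34.5 and 14.2 CPM against 5.54 to 10.9. Of the 10 progenitor markers 5 were called higher at E18 and 0 lower, where 20.8% and 22.5% of all genes were. Glul alone held 313 to 326 CPM of the Müller glia and astrocyte sum at E18 and 230 to 273 at P5. The part of other cell types in the results was not tested. Of 9 microglial markers, 8 stayed under 1 CPM in all samples, as did 6 of 7 for red blood cells.

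Short stretches of promoter are shown first, because the cores bound by NRF1 and by the Ets factor GABP are the letters best known from promoters of nuclear mitochondrial genes. A RefSeq promoter, 250 bases before to 50 after the start site on GRCm38.p6, was at hand for 70 of the 90 tested genes. The NRF1 core CGCATGCG, which reads the same on both strands, stood in 9 of these 70 promoters, 12.9%, and in 3.88% of the promoters of all 11094 tested genes with an entry. The Ets core CCGGAAG, searched on both strands, stood in 16, 22.9%, against 17.3% of all. The YY1 core ATGGCGGC, also searched on both strands, stood in 7, 10%, against 4.88% of all. The 3 cores do not overlap one another in the windows printed below, and at least 1 of the NRF1 and Ets cores stood in 21 of 70, 30.0%, against 20.3%. A match is a run of letters and not a bound site.

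The NRF1 core is capitalised in promoters of complex I (Ndufa8 and its assembly factor Ndufaf4), III (Uqcrc1) and IV (Cox6a1), printed 5′ to 3′ on the strand of the gene. The window of Ndufa8 lies at chr2:36049329-36049358 on the minus strand, that of Ndufaf4 at chr4:24897960-24897989 on the plus strand, that of Uqcrc1 at chr9:108936668-108936697 on the plus strand, and that of Cox6a1 at chr5:115349101-115349130 on the minus strand.
Ndufa8: gtcgctggagaCGCATGCGcagatggtacc
Ndufaf4: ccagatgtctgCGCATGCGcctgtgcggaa
Uqcrc1: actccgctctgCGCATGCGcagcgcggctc
Cox6a1: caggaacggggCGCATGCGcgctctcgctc

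The Ets core is capitalised, as CCGGAAG or as CTTCCGG where it lies on the opposite strand, in promoters of complex I (Ndufb6), II (Sdhb and Sdhd), IV (Cox6a1) and V (Atp5h). The windows lie at chr4:40279636-40279664 on the minus strand for Ndufb6, chr4:140961266-140961294 on the plus strand for Sdhb, chr9:50603878-50603906 on the minus strand for Sdhd, chr5:115348957-115348985 on the minus strand for Cox6a1 and chr11:115419940-115419968 on the minus strand for Atp5h.
Ndufb6: tcgtccttgttCTTCCGGtcccctcccct
Sdhb: gctcggagaaaCCGGAAGcggccttccac
Sdhd: ccgtctcctgcCTTCCGGttcacgcttca
Cox6a1: ccccatttccgCTTCCGGcgcgccggtgt
Atp5h: caaggagagaaCTTCCGGcaactctcttc

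All 8 genes printed here were picked from those lower at E18 by the test below. The calls of Ndufa8 and Uqcrc1 were lost in each fit that left out E18 replicate 1, 3 or 4 or P5 replicate 6 or 9, with adjusted p of 0.0560 to 0.0940 and 0.0521 to 0.114, and Sdhd and Atp5h lost theirs in some of them, as given with their values. Among the 70 members with a promoter, the median log2 fold change of E18 over P5 was -0.33 with the NRF1 core and -0.28 without. It was -0.34 and -0.28 for the Ets core. For the YY1 core the order was the other way, -0.25 with it and -0.31 without. Over all 11094 tested genes with an entry, the medians were 0.043 with the NRF1 core and -0.0057 without. They were 0.041 and -0.019 for the Ets core and 0.033 and -0.0060 for the YY1 core.

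Most of the respiratory genes were lower at E18. Genes were called with edgeR's quasi-likelihood test at a Benjamini-Hochberg adjusted p of 0.05 over all 16449 genes tested, and fold changes are E18 over P5, so a negative value means lower at E18. Of the 90 tested genes 48 were lower at E18, 53.3%, where 22.5% of all genes tested were lower, and 2 were higher, Ndufa4l2 and Atp5sl, where 20.8% of all genes were. The remaining 40 did not pass. The log2 fold change was below 0 for 83 of the 90, 92.2%, against 49.6% of all genes, and its median was -0.31, with the middle of the list between -0.42 and -0.20, against a median of 0.0047 for all genes. In 61 genes every E18 sample lay below every P5 sample, 67.8% against 28.5% of all genes, and in 4 every E18 sample lay above, where 27.6% of all genes did.

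The count of lower genes moved with the libraries. Without E18 replicate 1, 3 or 4 it was 22, 23 and 31, without P5 replicate 6 or 9 it was 34 and 31, and without P5 replicate 8 it was 72, while the share of all genes called lower went to 16.4%, 14.5%, 18.5%, 18.9%, 17.4% and 27.8% in the same order of E18 1, 3 and 4 and P5 6, 9 and 8. P5 replicate 8 was the lowest of the P5 samples in 81 of the 90 genes and in 39.2% of all genes, and its RGC marker sum of 6872 CPM was also the lowest of the 3 at P5, although 6 of the 12 RGC markers, Pou4f1, Pou4f2, Pou4f3, Isl1, Ebf1 and Ebf3, were highest in that sample among the P5 samples. The log2 fold change stayed below 0 in 82 to 84 genes in each of these fits. Of the 50 calls in either direction, 21 were made again in all 6 fits that left out a sample.

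The E18 samples stood close together. Summed over all 93 genes, E18 replicates 1, 3 and 4 held 7080, 7363 and 7282 CPM, and P5 replicates 6, 8 and 9 held 9096, 8108 and 9448 CPM. The ages did not overlap, and the mean at P5 was 1.23 times that at E18. E18 replicate 4, whose dividing cell and amacrine markers summed to 81.6 and 14.7 CPM, close to or below the P5 samples, lay between the other E18 samples for these genes. This is 1 sample, and the part of other cell types in these sums was not tested.

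**Figure D1:**
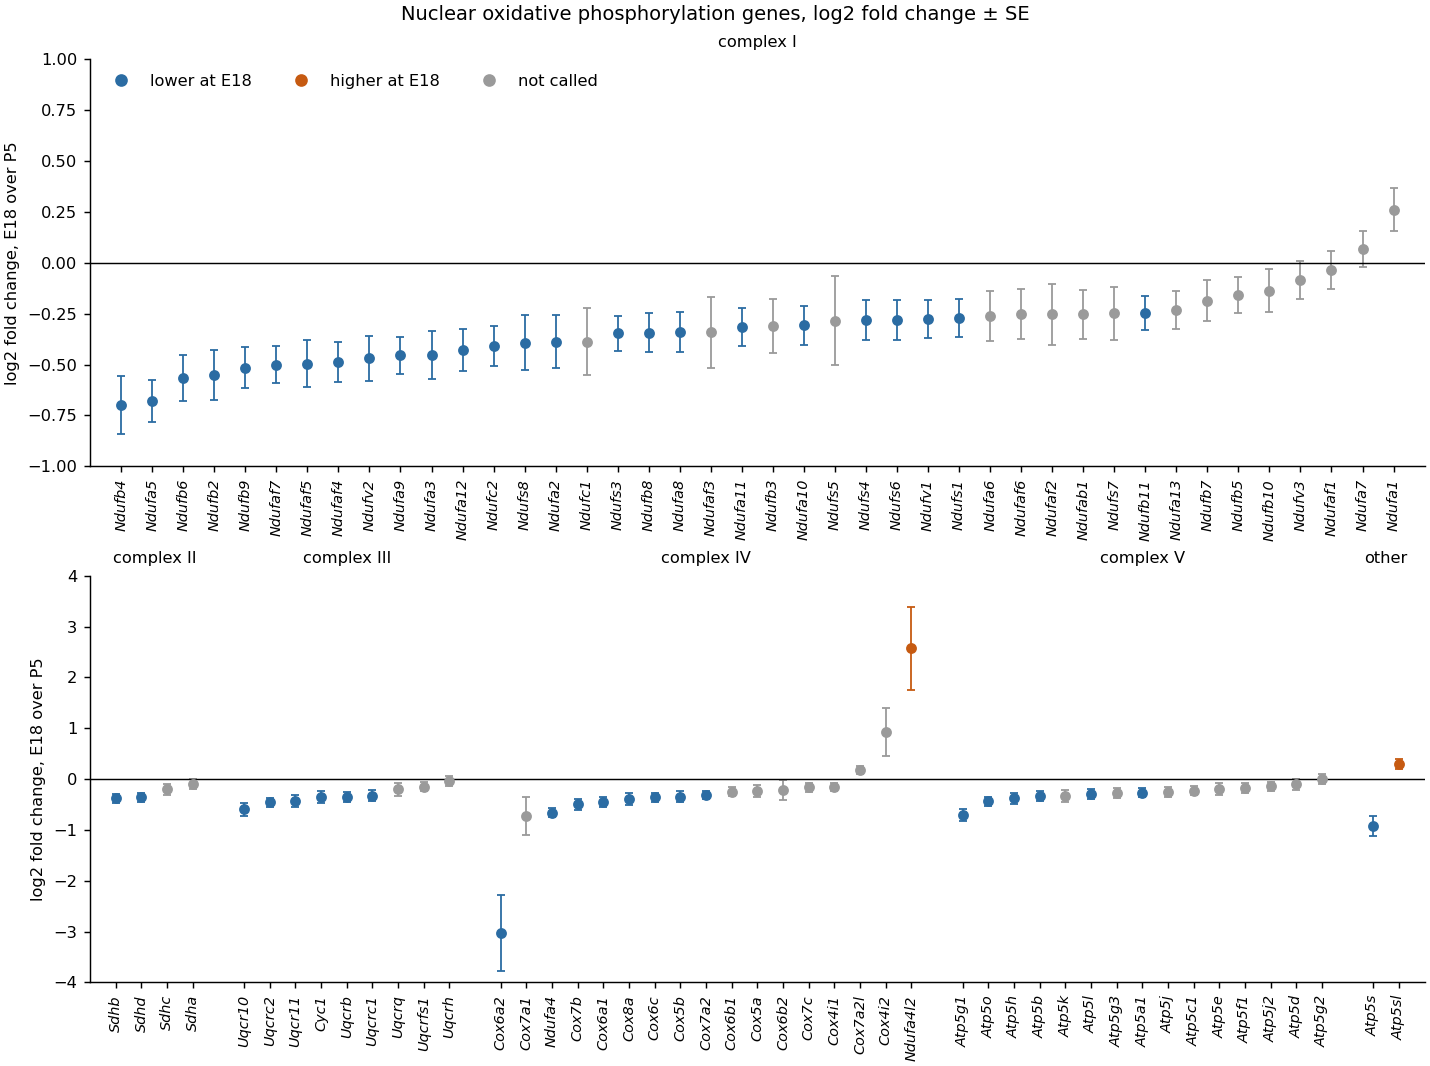
Log2 fold change of E18 over P5 with its standard error for 89 of the 90 tested genes, complex I above and complexes II to V below on a wider axis, coloured by call. Most points lie below 0, with 48 called lower, and Ndufa4l2 and Atp5sl are the 2 called higher.

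The median fall lay between -0.35 and -0.27 on the log2 scale in the 5 complexes. Complex I had 25 of 43 tested genes lower at E18 with a median log2 fold change of -0.31, complex II 2 of 4 with -0.28, complex III 6 of 9 with -0.35, complex IV 8 of 17 with -0.31, and complex V 6 of 15 with -0.27. The gene called higher, Ndufa4l2, is of complex IV. Without E18 replicate 1 the lower genes of complexes I to V were 11, 1, 2, 5 and 2, without E18 replicate 3 they were 11, 2, 2, 5 and 2, and without E18 replicate 4 they were 15, 2, 3, 7 and 3. Without P5 replicate 6 they were 18, 2, 3, 6 and 4, without P5 replicate 8 they were 36, 3, 7, 12 and 13, and without P5 replicate 9 they were 15, 2, 4, 6 and 3. With every sample 22.5% of all genes were lower. That share was 16.4%, 14.5% and 18.5% without E18 replicates 1, 3 and 4, and 18.9%, 27.8% and 17.4% without P5 replicates 6, 8 and 9. In complex V, 2 of 15 without E18 replicate 1 or 3 was not above the share of all genes. Differences between complexes were not tested. In each sample complex I held 27.9% to 28.6% of the CPM of all 93 genes, complex II 4.64% to 5.03%, complex III 9.18% to 9.51%, complex IV at most 19.4% and complex V 37.6% to 39.0%, so the complexes kept nearly the same shares at both ages.

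The summed levels of each complex set the ages apart. Complex I held 1992, 2056 and 2055 CPM at E18 and 2597, 2273 and 2663 at P5, a P5 mean 1.23 times that of E18. Complex II held 356, 358 and 350 CPM against 422, 383 and 453, 1.18 times. Complex III held 655, 676 and 674 CPM against 852, 751 and 898, 1.25 times. In all of these the lowest P5 sample was replicate 8, and it still lay above the highest E18 sample. Complex IV held 1350, 1385 and 1384 CPM against 1766, 1551 and 1710, 1.22 times, and complex V 2691, 2853 and 2782 against 3422, 3119 and 3683, 1.23 times.

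**Figure D2:**
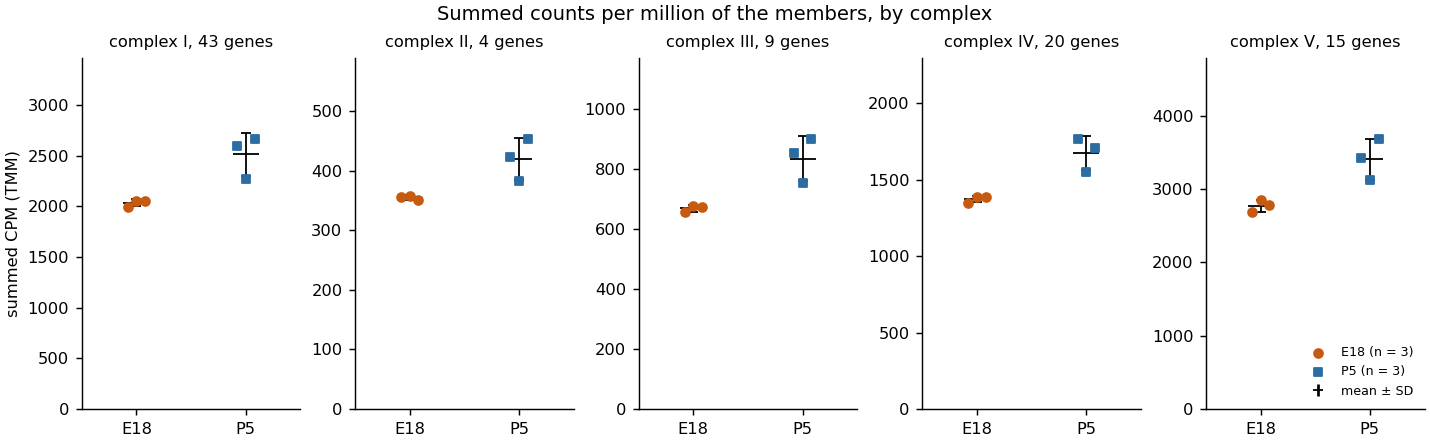
Summed CPM of the genes of each complex in each sample, with the mean and SD of the 3 samples per age and each axis starting at 0. In every complex the 3 P5 samples lie above the 3 E18 samples, and P5 replicate 8, the middle P5 point, is the lowest of the P5 samples.

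Complex I takes electrons from NADH at the tip of its matrix arm and passes them to ubiquinone, and its membrane arm pumps protons. Of its 7 nuclear core subunits, which bind the flavin and the iron-sulphur clusters or the quinone, 5 were lower at E18, with a median log2 fold change of -0.28. Of 29 accessory subunits 17 were lower, with a median of -0.31, and of 7 assembly factors 3 were lower, Ndufaf4, Ndufaf5 and Ndufaf7, with a median of -0.34.

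The largest fall in complex I was that of Ndufb4, an accessory subunit of the membrane arm (chr16:37647170-37654453, minus strand), with 21.9, 23.3 and 21 CPM in E18 replicates 1, 3 and 4 and 39.9, 28.5 and 39.3 in P5 replicates 6, 8 and 9. Its log2 fold change was -0.70 ± 0.14 (SE), adjusted p = 0.00502. All E18 samples lay below all P5 samples, and 33.4% of the 100-base windows of its transcript also occur in 1 other annotated gene, so its counts could hold reads of that gene. Ndufa5, an accessory subunit of the matrix arm (chr6:24518666-24528013, minus strand), had 36.0, 36.4 and 38.8 CPM at E18 and 65.9, 53.2 and 59.1 at P5, a log2 fold change of -0.68 ± 0.10 (SE), adjusted p = 0.00154, with no shared window. Ndufb6, of the membrane arm, had 35.7, 32.2 and 33.5 CPM at E18 and 53.1, 43.0 and 53.9 at P5, a log2 fold change of -0.56 ± 0.11 (SE), adjusted p = 0.00487. Each of these 3 calls was made again without any given sample. For Ndufb6, 39.0% of the exon bases overlap Smim27, and whether the counting used strand is not given in the sources used here.

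Among the core subunits Ndufv2, an iron-sulphur subunit next to the site where NADH is oxidised (chr17:66078638-66101559, minus strand), changed most. It had 74.2, 81.3 and 79.9 CPM at E18 and 115.5, 92.6 and 118.0 at P5, a log2 fold change of -0.47 ± 0.11 (SE), adjusted p = 0.00996. Ndufa1 had every E18 sample above every P5 sample, 94.9, 89.7 and 96.2 against 83.5, 83.5 and 67.5 CPM, but did not pass, with a log2 fold change of 0.26 ± 0.11 (SE) and adjusted p = 0.0748, or 0.0466 without P5 replicate 8. Ndufs5 stood out by its level, 1.54 to 2.47 CPM over all samples, and 27.0% of its windows also occur in 1 other gene.

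Complex II oxidises succinate and is also an enzyme of the tricarboxylic acid cycle. Sdhb and Sdhd were lower at E18, and Sdhc and Sdha did not pass. Sdhb, the iron-sulphur subunit (chr4:140961203-140979193, plus strand), had 79.0, 82.9 and 80.8 CPM at E18 and 105, 97.3 and 114 at P5, a log2 fold change of -0.38 ± 0.09 (SE), adjusted p = 0.00997. Sdhd, a membrane anchor (chr9:50596357-50603812, minus strand), had 65, 66.0 and 66.2 CPM against 79.8, 83.7 and 89.8, a log2 fold change of -0.36 ± 0.09 (SE), adjusted p = 0.00995, or 0.0501 without E18 replicate 1. Neither gene had overlapping ages. Sdha, the flavoprotein that oxidises succinate, had 134, 129 and 126 CPM at E18 and 141, 124 and 154 at P5, a log2 fold change of -0.10 ± 0.10 (SE), adjusted p = 0.432, with P5 replicate 8 the lowest of all 6 samples.

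Complex III passes electrons from ubiquinol to cytochrome c. Its small subunit Uqcr10 (chr11:4701973-4704342, minus strand) fell most, with 32.0, 28.9 and 31.7 CPM at E18 and 48.2, 38.9 and 52.7 at P5, a log2 fold change of -0.59 ± 0.13 (SE), adjusted p = 0.00613. Uqcrc2, a large structural subunit on the matrix side (chr7:120635176-120659524, plus strand), had 152, 160 and 158 CPM against 218, 198 and 229, a log2 fold change of -0.46 ± 0.09 (SE), adjusted p = 0.00394, with 22.7% of its windows found in 1 other gene. Both were called again without any given sample. Uqcr11 was lower by -0.43 ± 0.12 (SE), adjusted p = 0.0172, which became 0.0628 without E18 replicate 1 and 0.0709 without replicate 3.

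The redox subunits of complex III differed in their calls. Cyc1, which carries the haem of cytochrome c1, had 48.3, 48.3 and 50.5 CPM at E18 and 64.7, 53.3 and 70.3 at P5, a log2 fold change of -0.36 ± 0.11 (SE), adjusted p = 0.0333. Its adjusted p was 0.104, 0.113, 0.0699, 0.0824 and 0.0978 without E18 replicates 1, 3 and 4 and P5 replicates 6 and 9. Uqcrfs1, the Rieske iron-sulphur protein, had 101, 100 and 96.7 CPM against 112, 104 and 113, a log2 fold change of -0.15 ± 0.08 (SE), adjusted p = 0.171, or 0.0401 without P5 replicate 8. In both genes the ages did not overlap.

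Complex IV reduces oxygen with electrons from cytochrome c, and several of its nuclear subunits have a second isoform for muscle, lung or testis. Ndufa4, named for complex I but known as a subunit of complex IV (chr6:11900292-11907497, minus strand), had 135, 141 and 137 CPM at E18 and 235, 194 and 223 at P5. Its log2 fold change was -0.66 ± 0.09 (SE), with the smallest adjusted p of the 90 genes, 0.00117, and no window shared with another gene. Cox7b, a small membrane subunit (chrX:106015700-106022450, plus strand), had 88.2, 90.2 and 90.7 CPM against 136, 108 and 135, a log2 fold change of -0.50 ± 0.11 (SE), adjusted p = 0.00663. Both calls were made again without any given sample, and neither gene had overlapping ages.

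The isoforms used outside muscle carried nearly all complex IV counts at both ages. Cox4i1, an early subunit in the assembly of the complex, had 193, 199 and 197 CPM at E18 and 217, 217 and 221 at P5, a log2 fold change of -0.15 ± 0.08 (SE), adjusted p = 0.133, although the ages did not overlap. Cox6a1 had 78.8, 77.0 and 86.5 CPM against 116, 103 and 112, a log2 fold change of -0.45 ± 0.09 (SE), adjusted p = 0.00511. Cox7a2 was lower by -0.31 ± 0.09 (SE), adjusted p = 0.0176, and Cox8a by -0.40 ± 0.12 (SE), adjusted p = 0.0259. The call of Cox7a2 was lost without E18 replicate 1, 3 or 4 (adjusted p = 0.0729, 0.0554 and 0.0650), and that of Cox8a without E18 replicate 1 or 3 or P5 replicate 6 or 9 (0.0757, 0.113, 0.0716 and 0.0773). Cox6b1 had a log2 fold change of -0.25 ± 0.09 (SE), adjusted p = 0.0505, or 0.00893 without P5 replicate 8. Cox7a2l, a factor that joins complexes III and IV, had every E18 sample above every P5 sample, 156, 162 and 167 against 147, 145 and 136 CPM, with a log2 fold change of 0.18 ± 0.08 (SE) and adjusted p = 0.106.

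The second isoforms stood at a few percent of the first or less. The largest fall by fold was that of Cox6a2, the heart and muscle partner of Cox6a1 (chr7:128205435-128206387, minus strand), at 0, 0.0446 and 0.0331 CPM in E18 and 0.158, 0.152 and 0.393 CPM in P5, with a log2 fold change of -3.03 ± 0.74 (SE) and adjusted p = 0.0116, a gene of under 0.4 CPM in every sample. Cox7a1, the muscle partner of Cox7a2, had 1.17, 1.31 and 1.20 CPM at E18 and 2.48, 0.914 and 2.72 at P5, a log2 fold change of -0.73 ± 0.38 (SE), adjusted p = 0.148. Without P5 replicate 8, the lowest of all 6 samples, the adjusted p of Cox7a1 was 0.00347. Cox6b2, known from testis, had 3.13 to 4.04 CPM at E18 and 3.50 to 4.59 at P5, adjusted p = 0.395. The testis isoforms Cox7b2 and Cox8c and the muscle isoform Cox8b did not pass the expression filter, with at most 0.223 CPM for Cox7b2, 0.177 for Cox8b and 0 for Cox8c.

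Ndufa4l2, the paralogue of Ndufa4 known as a target of hypoxia (chr10:127514967-127517154, plus strand), went the other way. It had 8.2, 1.20 and 0.718 CPM in E18 replicates 1, 3 and 4 and 0.643, 0.518 and 0.532 in P5 replicates 6, 8 and 9. The log2 fold change was 2.57 ± 0.82 (SE), adjusted p = 0.0325, and 0.78 with adjusted p = 0.116 without E18 replicate 1, so the size of the change rested on that sample. The adjusted p was 0.100, 0.0849 and 0.0932 without P5 replicate 6, 8 or 9. As a share of Ndufa4 it stood at 6.08%, 0.856% and 0.523% at E18 and 0.274%, 0.267% and 0.238% at P5. Cox4i2, the isoform of Cox4i1 known from lung and low oxygen, had its highest value in the same sample, 3.50, 1.38 and 0.817 CPM at E18 against 0.902, 0.985 and 1.08, adjusted p = 0.140, or 0.0309 without E18 replicate 4.

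E18 replicate 1 also held the highest dividing cell marker sum, 329 CPM, and Kdr stood at 69.5, 62.9 and 14.1 CPM at E18 and 4.79 to 11.3 CPM at P5, so that the 7 endothelial markers summed to 71.6, 64.2 and 16.1 CPM at E18. Pecam1 and Tek, the other called markers of that list, went the other way, at 0.562 to 0.895 and 0.544 to 1.01 CPM at E18 and 2.09 to 2.67 and 2.26 to 3.64 CPM at P5. Of these markers 4 of 7 were under 1 CPM in all samples, with Cdh5 at 0.0121, 0 and 0 CPM at E18. Markers of pericytes, which are rich in Ndufa4l2 and Cox4i2, summed to 1.65, 0.705 and 0.751 CPM at E18 and 3.99, 2.39 and 4.77 at P5, with 6 of 7 under 1 CPM in all samples. Their part in these low values was not tested.

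**Figure D3:**
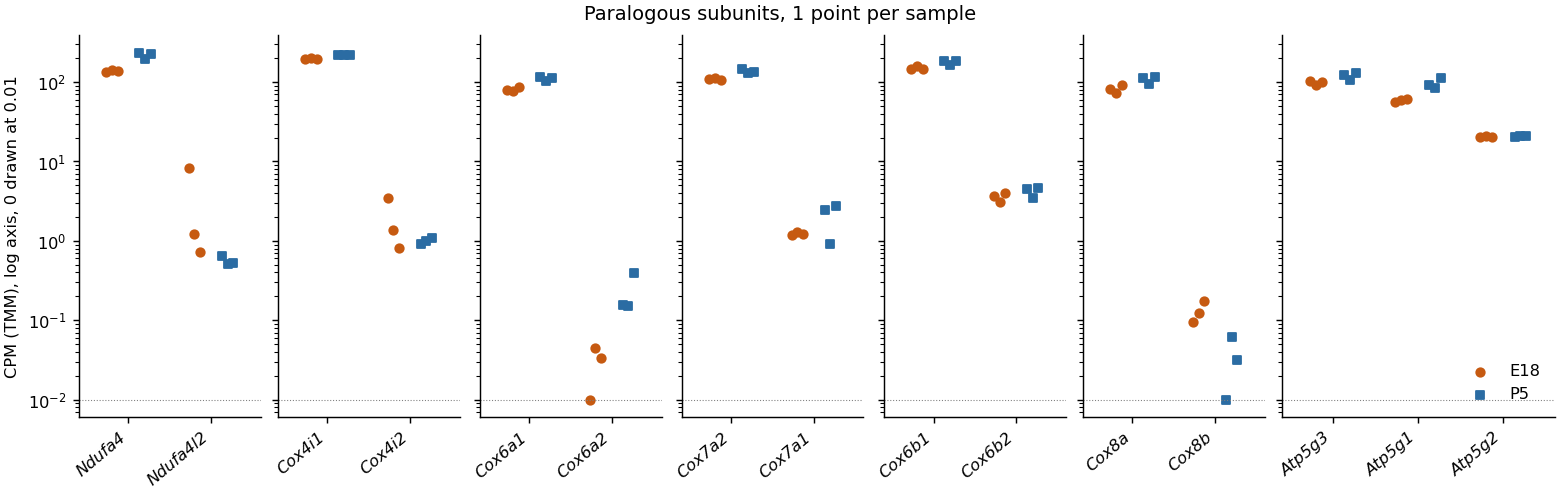
CPM of paralogous subunits in each sample on a log axis, with 0 drawn at 0.01. The first named gene of each pair stands far above its partner at both ages, Ndufa4l2 and Cox4i2 are highest in E18 replicate 1, and of the 3 genes for the c subunit Atp5g1 shows the widest gap between ages.

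Complex V couples a rotating ring of c subunits in the membrane to the catalytic head of alpha and beta subunits. Of its 8 core genes 3 were lower at E18, Atp5g1, Atp5b and Atp5a1, and of 7 peripheral stalk and membrane genes 3, Atp5o, Atp5h and Atp5l. Atp5b, the catalytic beta subunit (chr10:128083273-128090391, plus strand), had 800, 856 and 833 CPM at E18 and 1056, 936 and 1159 at P5, a log2 fold change of -0.34 ± 0.10 (SE), adjusted p = 0.0206. Without E18 replicates 1, 3 and 4 and P5 replicate 9 its adjusted p was 0.0740, 0.0563, 0.0527 and 0.0504, and the calls of Atp5a1 (0.0960 to 0.136) and Atp5l (0.0799 to 0.191) were lost in the same fits, and that of Atp5l also without P5 replicate 6 (0.0915). Atp5o, which joins the head to the peripheral stalk (chr16:91925214-91931687, minus strand), had 149, 164 and 157 CPM against 217, 195 and 222, a log2 fold change of -0.43 ± 0.09 (SE), adjusted p = 0.00548. Atp5h, a subunit of the stalk, had 102, 110 and 108 CPM against 152, 121 and 143, a log2 fold change of -0.38 ± 0.10 (SE), adjusted p = 0.0184, and its adjusted p was 0.0738, 0.0543 and 0.0532 without E18 replicate 1, E18 replicate 3 or P5 replicate 6. Of the windows of Atp5o and Atp5h 30.3% and 32.7% also occur in other genes.

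Atp5g1, Atp5g2 and Atp5g3 encode the same mature c subunit behind different import sequences, and their log2 fold changes ran from -0.70 to 0.00. Atp5g1 (chr11:96068852-96075670, minus strand) had 55.3, 59.1 and 61.1 CPM at E18 and 91.6, 83.0 and 112 at P5, a log2 fold change of -0.70 ± 0.12 (SE), adjusted p = 0.00239, called again without any given sample. Atp5g3 had 102, 93.0 and 99.3 CPM against 122, 105 and 129, a log2 fold change of -0.28 ± 0.10 (SE), adjusted p = 0.0521, or 0.00601 without P5 replicate 8. Atp5g2 (chr15:102662864-102672352, minus strand) had 20.6, 21 and 20.5 CPM against 20.0, 21.1 and 20.8, a log2 fold change of 0.00 ± 0.10 (SE), adjusted p = 0.989, and 86.4% of its windows occur in other genes. Of the counts of the 3 genes, Atp5g1 took 31.1%, 34.2% and 33.8% at E18 and 39.2%, 39.7% and 42.8% at P5, with no overlap between ages, while Atp5g2 went from 11.3% to 12.1% down to 7.97% to 10.1%. The difference between the 3 changes was not tested.

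Atp5s and Atp5sl differ from the subunits by role, and Atp5sl also by direction. Atp5s, a factor that binds the ATP synthase (chr12:69724950-69744660, plus strand), had 6.21, 6.08 and 6.60 CPM at E18 and 13.4, 8.29 and 14.2 at P5, a log2 fold change of -0.92 ± 0.20 (SE), adjusted p = 0.00735. Atp5sl, known to help assemble complex I, had 29.5, 28.3 and 29.7 CPM at E18 and 23.8, 22.1 and 25.2 at P5, a log2 fold change of 0.30 ± 0.10 (SE), adjusted p = 0.0371. In both the ages did not overlap, in opposite directions. The call of Atp5sl was lost without E18 replicate 1, 3 or 4 or P5 replicate 6 (adjusted p = 0.120, 0.0911, 0.112 and 0.0873).

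Levels between genes can be set side by side only per length. On RPKM (the CPM divided by the annotated transcript length in kilobases), given for the 86 genes whose length was settled, Atp5b was the highest, at 433 ± 14.9 RPKM at E18 and 548 ± 58.1 at P5 (SD, n = 3), and Atp5a1, the alpha subunit, at 306 ± 10.2 and 368 ± 33.9 RPKM. Ndufa4 stood at 225 ± 4.95 and 356 ± 34.2 RPKM at the 610 bases used, and Cox4i1 at 264 ± 4.25 and 293 ± 3.29 RPKM at 745 bases. Settled lengths can still differ between main transcripts of a gene, and those of Ndufa4 run from 452 to 610 bases. The order of these 2 genes at E18 therefore depends on the length taken, while at P5 Ndufa4 was the higher. The complex II anchor Sdhc was lowest in its complex at 24.7 ± 0.49 and 28.5 ± 3.19 RPKM, and Sdhb highest at 70.8 ± 1.67 and 92.3 ± 7.26. In complex I the assembly factors stood at 7.34 to 19.5 RPKM at E18, below every subunit of settled length but Ndufs5, at 3.43 ± 0.577 RPKM.

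The genes are short, with a median transcript of 849.5 bases against 2858 for all genes tested. Among 2141 other genes of a mean of at least 10 CPM and of 524 to 2057 bases, the range that holds the middle 80% of the member lengths, 19.5% were lower at E18 and the median log2 fold change was -0.01. Of 77 tested genes for mitochondrial ribosomal proteins, which translate the products of mitochondrial DNA, 9 were lower and 4 higher. These shares were not above the 22.5% and 20.8% of all genes, and the median was -0.11. Of 82 tested genes for cytosolic ribosomal proteins 1 was lower, where 22.5% of all genes were, and 72 were higher, where 20.8% were. Their median was 0.56. The part of transcript length or level in these changes was not tested.

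**Figure D4:**
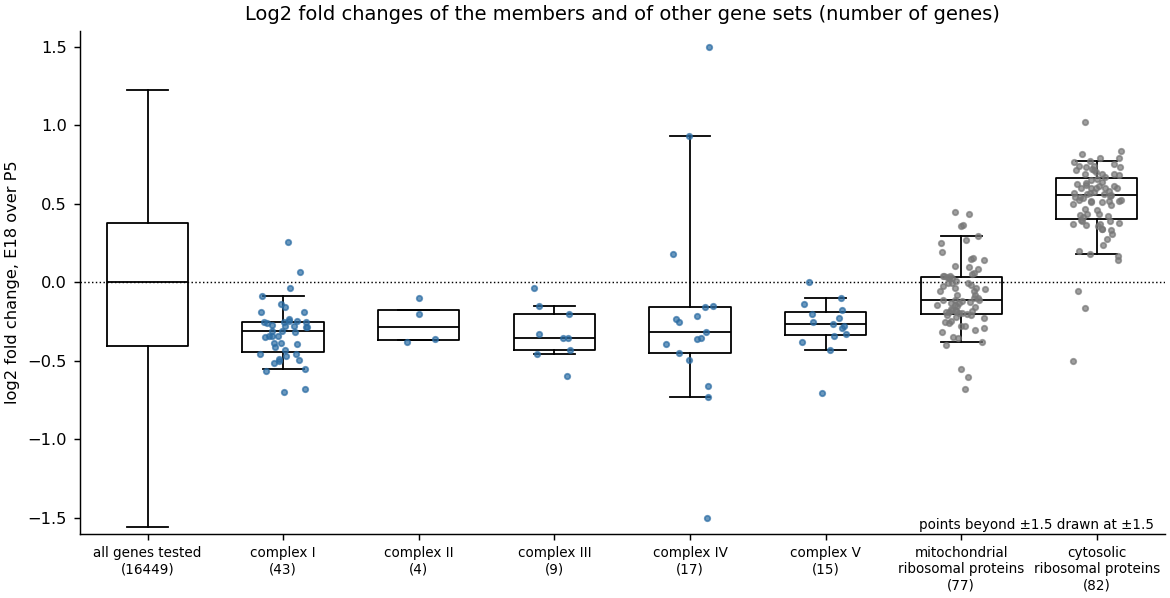
Log2 fold changes of E18 over P5 for all genes tested, for the members of each complex and for mitochondrial and cytosolic ribosomal proteins, with boxes from the first to the third quartile, a line at the median, whiskers from the 5th to the 95th percentile and 1 point per gene except for all genes. Medians lie between -0.35 and -0.27 in the complexes, near 0 for all genes and at 0.56 for cytosolic ribosomal proteins, and points beyond 1.5 in either direction, Cox6a2 and Ndufa4l2, are drawn at that limit.

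Genes around the respiratory chain were read from lists of their own. Of 9 genes for carriers, pores and cytochrome c, 7 were lower at E18, where 22.5% of all genes were. Their median log2 fold change was -0.39. The count was 4 without E18 replicate 3, where 14.5% of all genes were lower. Cycs, which carries electrons from complex III to complex IV, had 70.9, 75.8 and 74.5 CPM at E18 and 114, 92.8 and 117 at P5, a log2 fold change of -0.55 ± 0.11 (SE), adjusted p = 0.00428. Ckmt1, the mitochondrial creatine kinase, was lower by -0.85 ± 0.19 (SE), adjusted p = 0.00711, and Vdac3, a pore of the outer membrane, by -0.46 ± 0.10 (SE), adjusted p = 0.00684. Of 13 genes of the tricarboxylic acid cycle, which feeds the chain, 6 were lower, against the same 22.5% of all genes, with a median of -0.28. Among the 6, Ogdh had an adjusted p of 0.0492. Idh3a, the catalytic subunit of the NAD-dependent isocitrate dehydrogenase, had 79.0, 70.6 and 78.9 CPM at E18 and 177, 138 and 206 at P5, a log2 fold change of -1.19 ± 0.14 (SE), adjusted p = 0.000583. Fh1, the fumarase, was lower by -0.70 ± 0.14 (SE), adjusted p = 0.00509, and Sucla2, of succinyl-CoA ligase, by -0.66 ± 0.10 (SE), adjusted p = 0.00129.

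Of 38 tested assembly factors that the symbol rule leaves out 8 were lower and 3 higher, shares not above the 22.5% and 20.8% of all genes, with a median of -0.11. Cox11, which delivers copper to complex IV, was higher at E18, with 23.6, 23.8 and 21.9 CPM against 16.4, 15 and 14.2, a log2 fold change of 0.60 ± 0.11 (SE), adjusted p = 0.00283. Coa6, also of the copper route, was lower by -0.71 ± 0.17 (SE), adjusted p = 0.0119, or 0.0515 without E18 replicate 3. The count of lower factors went from 1 to 15 as samples were left out, with 2, 1 and 4 without E18 replicates 1, 3 and 4, and 4, 15 and 3 without P5 replicates 6, 8 and 9.

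Of 15 tested regulators of these genes 3 were lower at E18 and 1 higher, shares not above the 22.5% and 20.8% of all genes, and the higher count was 0 without E18 replicate 3 or P5 replicate 6, 2 without E18 replicate 4 and 4 without P5 replicate 8. Ppargc1a, the coactivator that drives mitochondrial biogenesis, had 6.40, 5.42 and 5.99 CPM at E18 and 10.7, 12 and 14.7 at P5, a log2 fold change of -1.07 ± 0.16 (SE), adjusted p = 0.00137. Esrrg, a nuclear receptor that works with it, had 23.9, 29.4 and 19.8 CPM against 55.3, 39.3 and 52.9, a log2 fold change of -1.01 ± 0.18 (SE), adjusted p = 0.00259. Ppargc1b was lower by -1.16 ± 0.32 (SE), adjusted p = 0.0188, or 0.0765 without E18 replicate 3 and 0.0635 without P5 replicate 9. In all of these the ages did not overlap.

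Nrf1, the factor of the core printed above, was higher at E18, with 45.4, 49.3 and 45.6 CPM against 30.6, 37.7 and 23.1, a log2 fold change of 0.62 ± 0.16 (SE), adjusted p = 0.0158, or 0.0570 without E18 replicate 3 and 0.0557 without P5 replicate 6. Gabpa, the Ets subunit of GABP, had 58.2, 59.0 and 49.1 CPM against 50.1, 54.0 and 41.1, a log2 fold change of 0.20 ± 0.13 (SE), adjusted p = 0.236. Tfam, which packs and transcribes mitochondrial DNA, had 47.0, 45.8 and 45.6 CPM against 39.3, 48.2 and 37.7, a log2 fold change of 0.14 ± 0.11 (SE), adjusted p = 0.326, or 0.0255 without P5 replicate 8. Esrra had 11.8, 11.5 and 12.8 CPM against 10.5, 11.8 and 14.5, a log2 fold change of -0.03 ± 0.15 (SE), adjusted p = 0.891, whose sign turned without E18 replicate 3 or P5 replicate 9 (0.01 and 0.11). The ages overlapped for Gabpa, Tfam and Esrra, and not for Nrf1.

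Genes known as targets of hypoxia mostly went the other way from the respiratory genes. Of 10 tested, 6 were higher at E18 and 1 lower, where 20.8% and 22.5% of all genes were. The median log2 fold change of the 10 was 0.75. Egln3, Adm and Car9 stayed under 1 CPM in all samples, and Car9 was among the 6 called higher. Slc2a1, the glucose transporter, had 45.1, 31.2 and 33.6 CPM at E18 and 8.09, 6.89 and 15.7 at P5, a log2 fold change of 1.84 ± 0.30 (SE), adjusted p = 0.00195. Vegfa, the growth factor of vessels, had 151, 154 and 182 CPM against 47.6, 46.2 and 54.6, a log2 fold change of 1.71 ± 0.11 (SE), adjusted p = 7.51e-05. Ldha, which turns pyruvate to lactate, had 555, 571 and 597 CPM against 289, 201 and 402, a log2 fold change of 0.95 ± 0.21 (SE), adjusted p = 0.00739. In these 3 the ages did not overlap, and E18 replicate 1 was the highest sample only for Slc2a1. Higd1a, the gene called lower, encodes a factor that binds complex IV, and had 52.8, 53.6 and 54.7 CPM against 70.8, 58.0 and 95.8, a log2 fold change of -0.48 ± 0.16 (SE), adjusted p = 0.0432, a call lost without E18 replicate 1, 3 or 4 (0.107, 0.112 and 0.0831) or P5 replicate 6 or 9 (0.0788 and 0.102).

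**Figure D5:**
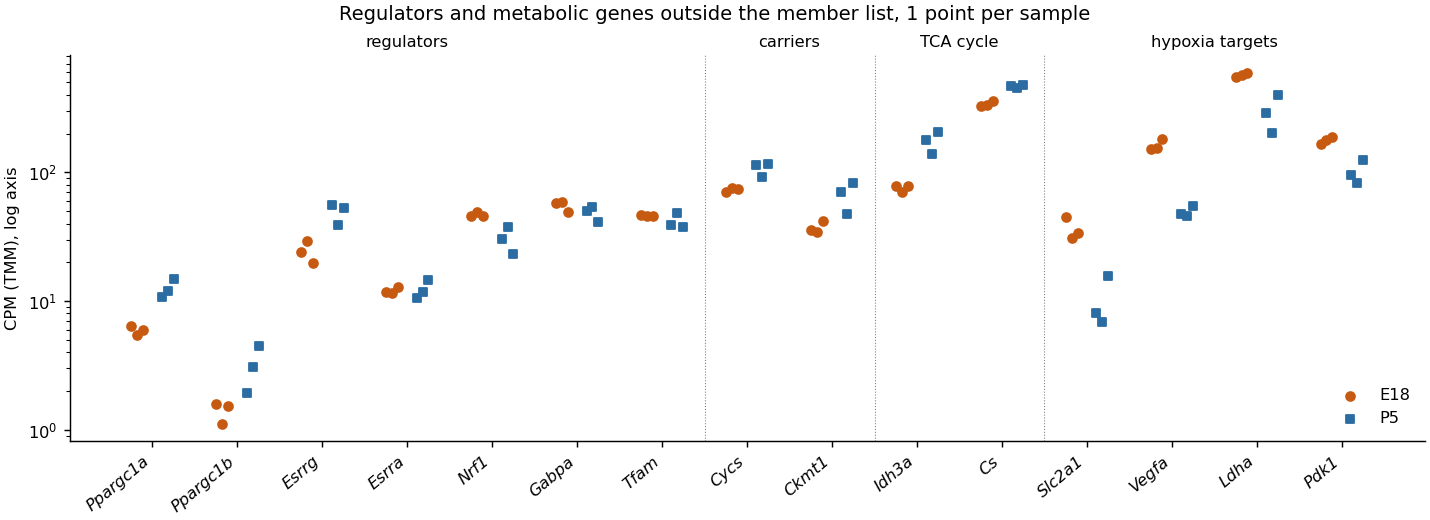
CPM of regulators, carriers, enzymes of the tricarboxylic acid cycle and hypoxia targets in each sample on a log axis. Ppargc1a, Ppargc1b, Esrrg, Cycs, Ckmt1, Idh3a and Cs lie lower at E18, and Nrf1, Slc2a1, Vegfa, Ldha and Pdk1 lie higher, with the ages apart in each of these.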

How the data were processed

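RNA was sequenced from 6 samples of immunopanned mouse RGCs, 3 per age. The protocol names TruSeq with RiboZero Gold, while the labels give polyA RNA as the molecule, and which applies is not settled. Alignment by the authors was with STAR to mm10 and counting with HT-seq on the RefSeq annotation, and the deposited values used here are raw counts of each gene in each sample. The submitters' processing notes also name CASAVA 1.8.2 and edgeR. The table's other columns hold the authors' normalized counts, log2 fold changes, p-values, ranks and 9 further columns of per-sample values, and none was used. The setting for strand and for reads that map to several genes is not given in the sources used here.

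Counts were normalized by TMM, filtered with filterByExpr (16449 of 24060 genes kept) and E18 was set against P5 in edgeR 4.0.16 (R 4.3.3) by its quasi-likelihood test. P-values were adjusted by Benjamini-Hochberg over every gene kept. The standard error is the log2 fold change divided by the root of its F value. The script was tested on simulated counts. No pair of samples within an age was alike to sampling noise (chi-square per degree of freedom 26.0 to 121). At 81213639 or more reads a sample, counting error is small for all but the genes under 1 CPM. DESeq2 1.42.0, other scalings, filters and tests, and fits without each sample were the alternatives.

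Gene positions, lengths and windows shared between genes came from GENCODE vM21 (GRCm38, the build of mm10), and promoters from RefSeq on GRCm38.p6. Ribosomal genes were taken by symbol. Named genes were, in each complex, the up to 3 called genes of largest change in each direction, the core members of largest and smallest change, the paralogue groups, the genes that failed the filter, the up to 3 called genes of largest change in each companion list, and 6 regulators. Of these, 1 core member of complex I is not reported here. Other genes named, such as Atp5b, Atp5a1, Ndufa1, Ndufs5, Cox7a2l, Cs, Pdk1, Higd1a and Sdhc, were chosen after their values were seen. The members and lists were chosen with earlier results of these data known.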

Additional observations from a re-analysis of the deposited data

How the results depend on the processing

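Medians of the fold change and ratios of summed CPM kept their direction in every alternative, and the log2 fold change was below 0 in 82 to 84 members in each. The medians and ratios also moved by less than the spread between samples of an age. That spread includes the sample left out, so fits without a sample could hardly move by more, and for them this is no check. Of the 50 calls, DESeq2 kept 49, RLE factors 50, upper-quartile factors 46, library totals 49, no expression filter 42, a filter of 1 CPM 48 and the likelihood ratio test 48, and 20 were kept in every alternative. The count of members higher at E18 was 1 under library totals, no filter, the filter of 1 CPM and subunits only. In complex IV it was 0 under the filter of 1 CPM and with Ndufa4 and Ndufa4l2 moved to complex I. Assembly factors lower at E18 were 13 under library totals, hypoxia targets lower were 0 under upper-quartile factors, and regulators higher were 2 under DESeq2. The causes were not tested. Leaving out 1 sample gave 22 to 72 members lower and 0 to 3 higher, with 11 to 36 lower in complex I, 1 to 3 in complex II, 2 to 7 in complex III, 5 to 12 in complex IV and 2 to 13 in complex V, and 0 to 2 higher in complex IV. It gave 1 to 15 lower assembly factors, 4 to 9 carriers, 0 to 1 hypoxia targets, 0 to 2 ATP synthase genes outside the symbol rule and 0 to 1 uncoupling proteins, and 0 to 4 higher regulators. Fewer samples leave fewer degrees of freedom, and the calls rise without P5 replicate 8. The sign of Atp5g2 turned under library totals (-0.024) and the filter of 1 CPM (-0.0065), and its log2 fold change ran from -0.035 to 0.010 as samples were left out. That of Esrra ran from -0.15 to 0.11. No paired analysis was possible because the ages share no replicate number. Depth limits only the genes under 1 CPM, such as Cox6a2, Cox7b2, Cox8b and Cox8c.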

Other observations

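Of 3 genes of the ATP synthase that carry other symbols, Usmg5 and 2010107E04Rik, both small membrane subunits, were lower at E18, where 22.5% of all genes were. The third, Atpif1, encodes its inhibitory factor and did not pass. Atpif1 had 170, 183 and 195 CPM at E18 and 216, 177 and 190 at P5, a log2 fold change of -0.09 ± 0.10 (SE) and adjusted p = 0.497. Usmg5 had 61.4, 66.2 and 60.1 CPM at E18 and 85.6, 73.5 and 78.9 at P5, a log2 fold change of -0.34 ± 0.09 (SE) and adjusted p = 0.0186, or 0.0780 without E18 replicate 1 and 0.0726 without E18 replicate 4. 2010107E04Rik had 53.0, 56.3 and 52.5 CPM at E18 and 76.2, 58.4 and 71.0 at P5, a log2 fold change of -0.34 ± 0.11 (SE) and adjusted p = 0.0362, a call that leaving out any sample but P5 replicate 8 ended (adjusted p = 0.114, 0.0843 and 0.104 without E18 replicates 1, 3 and 4, and 0.101 and 0.0880 without P5 replicates 6 and 9). Of 5 genes for uncoupling proteins and the like, Slc25a27, an uncoupling protein of neurons, was higher at E18, where 20.8% of all genes were. Slc25a27 had 123, 130 and 139 CPM against 87.4, 94.7 and 74.6, a log2 fold change of 0.61 ± 0.11 (SE) and adjusted p = 0.00280. Ucp1 and Ucp3 stayed under 1 CPM in all samples.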
